A study of Mus musculus with 25 samples.

Results

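The comparison was the difference between the wound responses of 2 epithelial lineages of mouse skin, hair follicle stem cells (HFSC) and epidermal stem cells (EpdSC). It was taken from 8 RNA libraries, those with CL in their titles, out of 21 RNA libraries and 25 samples in all. For each gene, the log2 fold change of wounded EpdSC over EpdSC was subtracted from that of the wounded HFSC lineage over HFSC, so a positive difference means that the gene moved further up, or less far down, in the HFSC lineage. Of 24061 gene symbols, 14831 had enough counts to be tested, and 2339 of these were called at an adjusted p under 0.05.

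The 4 groups held 2 libraries each, from female B6 mice aged 60 days, sorted as lineage negative cells with high integrin alpha 6. Wounded HFSC lineage cells came from wound biopsies of Sox9CreER;R26-YFP mice and were sorted as YFP positive. HFSC of unwounded skin carried CD34 and lacked Sca1. Wounded EpdSC were the YFP negative cells of the same kind of biopsy, and EpdSC of unwounded skin lacked CD34 and carried Sca1. Sox9CreER is a drug-inducible Cre driven from Sox9, a gene of the bulge, and it leaves a heritable YFP mark. The YFP negative gate therefore takes every integrin alpha 6 high, lineage negative cell without the mark, and gate and wound changed together, so their effects cannot be told apart. How long after wounding the biopsies were taken is not stated. The labels do not say whether the 2 libraries of a group derive from different mice. The spread behind each p-value is that between libraries and may be technical. It was estimated per gene over the 4 groups together, although the libraries of a group differed by unequal amounts. The chi-square of counts between the 2 libraries, per degree of freedom, was 78.8 in the wounded HFSC lineage and 76.5 in HFSC. It was 145 in wounded EpdSC and 15 in EpdSC.

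HFSC reside in the bulge of the hair follicle, where a quiescent programme of transcription factors such as Sox9, Lhx2 and Tcf7l1 and signals of the bone morphogenetic protein (BMP) and Wnt pathways holds them until the next hair cycle. EpdSC lie in the basal layer of the epidermis between follicles and renew it continuously. When skin is wounded, progeny of both lineages move into the wound bed and rebuild the epidermis, and cells of follicle origin lose bulge genes as they take on an epidermal fate.

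The libraries held 15009407 to 32663874 counts over the gene symbols. Levels are CPM, counts scaled to library size, given for library A and then library B of each group, and 3 counts corresponded to between 0.0847 and 0.1875 CPM. Cd34, which encodes a gated antigen and a bulge marker, stood at 2.19 and 2.4 CPM in the wounded HFSC lineage against 659.5 and 419 in HFSC, and 12.8 and 5.47 CPM in wounded EpdSC against 4.34 and 8.75 in EpdSC. The transcription factor Lhx2 stood at 4.55 and 3.92 CPM in the wounded HFSC lineage and 175 and 172 CPM in HFSC. Its level was 0.992 and 1.1 CPM in wounded EpdSC and 1.5 and 2.31 CPM in EpdSC. Sox9, Krt24 and Lgr5, further bulge markers, were also highest in HFSC. Krt15, another, did not set HFSC apart, with 9695 and 10190 CPM in HFSC and 12140 and 10830 CPM in EpdSC. After wounding Krt15 stood at 311 and 218 CPM in the HFSC lineage and 182 and 170 CPM in EpdSC. Ly6a, the gene of Sca1, was lowest in HFSC, at 36.2 and 59.4 CPM, but did not mark EpdSC alone. It stood at 709 and 654.5 CPM in the wounded HFSC lineage, 1144 and 776 CPM in wounded EpdSC and 197.5 and 219 CPM in EpdSC. Krt14 stood at 4173 CPM or more in all 8 libraries. The 4 Y-linked genes Ddx3y, Uty, Kdm5d and Eif2s3y summed to at most 0.376 CPM in the 8 libraries, as their female label has it.

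Genes of other skin cells were measured beside these. The 11 leukocyte genes counted, among them Cd74, H2-Aa and Lyz2, summed to 62 and 57.7 CPM in the wounded HFSC lineage and 71.8 and 180.2 CPM in HFSC, against 7010 and 5370 CPM in wounded EpdSC and 55.5 and 41 CPM in EpdSC. None of the 11 was at 0 in both libraries of any group. The 10 dermal fibroblast genes summed to 524 and 640.4 CPM in the wounded HFSC lineage and 371 and 286 CPM in HFSC, against 1460 and 1718 CPM in wounded EpdSC and 159 and 133 CPM in EpdSC, with Lum at 0 in HFSC and Dpt at 0 in EpdSC. The wounded EpdSC libraries thus stood apart from the other 6 in the sums of both lists, by far most in the leukocyte list. Most of the fibroblast sum in both groups of the HFSC lineage came from Sparc, at 499 and 625 CPM in the wounded HFSC lineage and 328 and 224 CPM in HFSC. Sparc stood at 750 and 949 CPM in wounded EpdSC and 79.4 and 74.6 CPM in EpdSC. The 8 melanocyte genes summed to 6.94 and 5.65 CPM in the wounded HFSC lineage, 92.2 and 60.3 CPM in HFSC, 19.8 and 26.1 CPM in wounded EpdSC and 16 and 21.4 CPM in EpdSC, most of it from Mitf in HFSC. In bulk libraries, a larger share of such cells and more of their RNA per cell cannot be told apart.

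**Figure D1:**
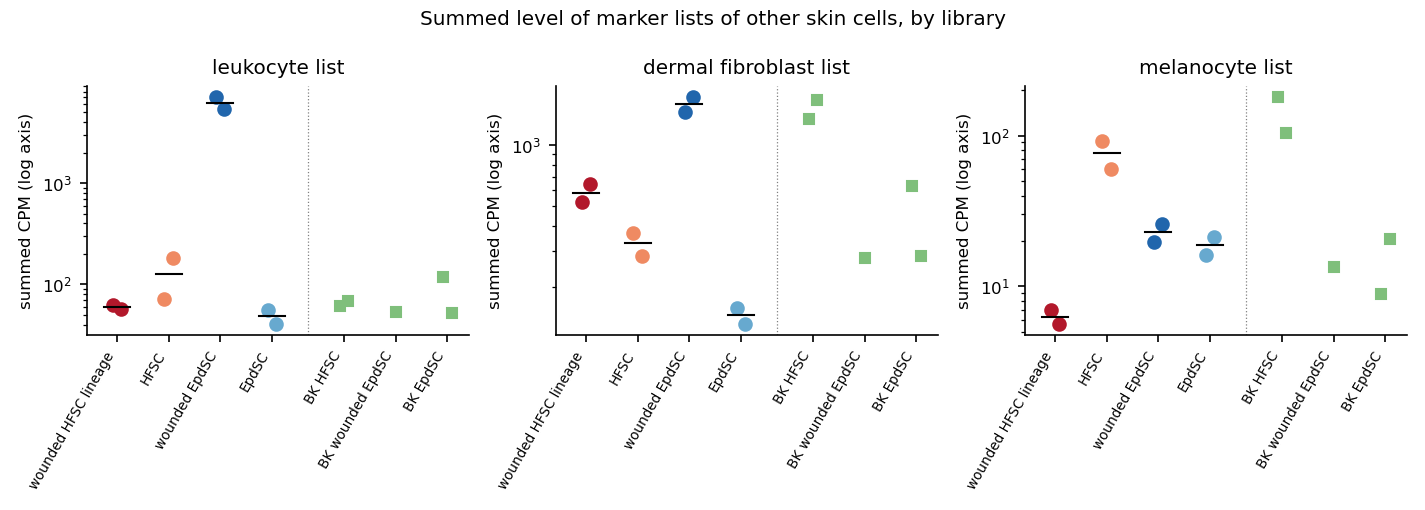
Summed CPM (log axis) of 3 marker lists of other skin cells in each library. Circles are CL libraries with their mean as a bar, and squares are libraries of a further set, BK; the leukocyte list reached 7010 and 5370 CPM in wounded EpdSC and at most 180.2 CPM in every other library.

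Of the 14831 genes, 15.8% were called in the difference of the responses. The response of the HFSC lineage was the higher one for 788 genes (5.31%) and the lower one for 1551 genes (10.5%). The response of the HFSC lineage itself was called for 46.1% of genes, 21.4% higher and 24.7% lower after wounding, and that of EpdSC for 58.4%, 30.2% higher and 28.2% lower. Across all genes the 2 responses shared their direction for 71.0% of genes. With upper quartile scaling 2678 genes were called, 20.9% of them higher instead of 33.7%, and the median difference over all genes was -0.34 instead of -0.06 (log2).

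The calls depended on single libraries. Without wounded EpdSC B, 6499 genes were called and 56.7% of them were higher. The counts were 1128 and 1080 without wounded HFSC lineage A or B, 1412 and 1171 without HFSC A or B, 789 and 992 without EpdSC A or B, and 2079 without wounded EpdSC A. Under each of these 8 omissions 696 of the 2339 genes were called again in the same direction, 108 of the 788 higher and 588 of the 1551 lower ones. For named genes whose call was lost, the number of the 8 omissions that ended it is given with the highest adjusted p among them and the library left out there. Values also followed gene span, most in wounded EpdSC A. Over the longest 20% of genes, the median log2 deviation from the mean of the 8 libraries was -0.79 in wounded EpdSC A and -0.26 in wounded EpdSC B. It was 0.41 and 0.18 over the shortest 20%. Over the longest 20% it was -0.22 and 0.03 in the wounded HFSC lineage, 0.32 and 0.27 in HFSC, and 0.25 and 0.205 in EpdSC. The median response there was -0.43 in the HFSC lineage and -0.82 in EpdSC, against -0.04 and 0.56 over the shortest 20%. Higher calls numbered 64 over the shortest 20% of genes and 276 over the longest 20%, and lower calls 324 and 289. With the span trend removed in a fit added later, 2953 genes were called, 2142 of them shared, and the higher calls numbered 1230 instead of 788. Rises limited to the HFSC lineage then numbered 359 instead of 193, and falls limited to EpdSC 454 instead of 285.

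Called genes were sorted by their 2 arms. In 338 genes the arms were called with opposite signs, 49 of them higher and 289 lower in the difference. In 467 genes the HFSC lineage alone was called while the EpdSC change was under 1 on the log2 scale, 193 higher and 274 lower. The reverse, a response limited to EpdSC, held for 707 genes, 285 higher and 422 lower. Both arms moved in 1 direction by unequal amounts for 517 genes, 245 higher and 272 lower, and 310 genes met none of these rules. Such limits on calls describe each arm, and the test behind every gene named is that of the difference itself. The difference also equals the gap between the lineages after wounding less the gap before it. Counts of class members called in either gap thus follow in part from that choice and add no support. Of all genes tested, 1067 were called higher in HFSC than in EpdSC before wounding and 538 lower. Between the wounded groups, 1008 were higher in the HFSC lineage and 1839 lower.

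**Figure D2:**
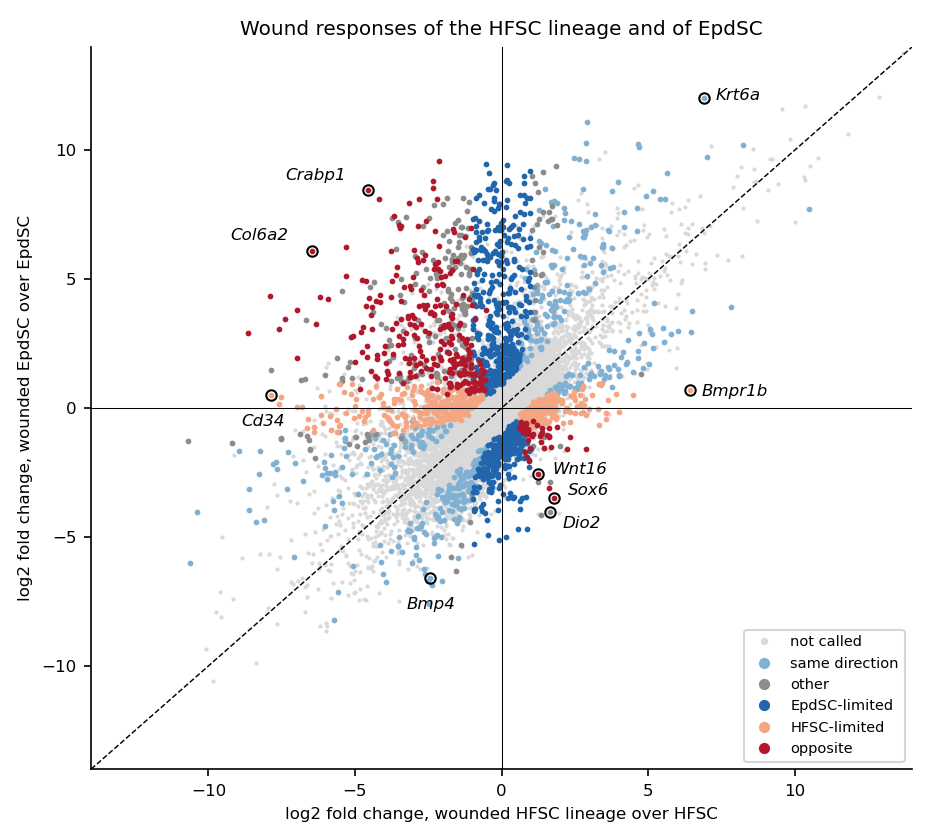
Log2 fold change on wounding in the HFSC lineage (x axis) and in EpdSC (y axis) for 13986 tested genes with a count in every group, coloured by response class; the dashed line marks equal responses. Sox6, Dio2 and Wnt16 lie right of 0 and below 0, and Crabp1 and Col6a2 lie left of 0 and above 0.

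Sox6, Dio2, Bmpr1b and Crabp1 were chosen for a full account with earlier results of these data known. Sox6 encodes a SOX family transcription factor that lacks an activation domain of its own and works through its partners. It stood at 15.9 and 22.8 CPM in the wounded HFSC lineage against 3.36 and 8.04 in HFSC, and 7.23 and 15.8 CPM in wounded EpdSC against 149 and 107 in EpdSC. The groups of each lineage did not overlap, and Sox6 rose in the HFSC lineage and fell in EpdSC, where unwounded cells held the highest level of all. The responses were 1.77 ± 0.50 in the HFSC lineage and -3.47 ± 0.52 in EpdSC (log2, SE, here and below), and their difference was 5.25 ± 0.72 (adjusted p = 0.00373 by edgeR's quasi-likelihood test over all 14831 genes, as for every adjusted p from CL libraries below). Between the wounded groups it differed by 0.75 ± 0.48 (adjusted p = 0.244), against -4.50 ± 0.55 (adjusted p = 0.00203) between HFSC and EpdSC.

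Dio2 encodes the deiodinase that turns the prohormone thyroxine into active thyroid hormone. Its level was 2.85 and 6.69 CPM in the wounded HFSC lineage against 0.79 and 2.25 in HFSC, and 1.27 and 2.92 CPM in wounded EpdSC against 34.5 and 35.4 in EpdSC. Unwounded EpdSC were again the highest group, and the lowest wounded HFSC lineage library was above both HFSC libraries. Dio2 fell in EpdSC, with a response of -4.05 ± 0.64 (adjusted p = 0.00137), while its change of 1.66 ± 0.61 in the HFSC lineage missed the threshold (adjusted p = 0.0556). The difference was 5.71 ± 0.88 (adjusted p = 0.0058).

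Bmpr1b, a type I receptor of BMP ligands, showed a response limited to the HFSC lineage. It was near the floor in HFSC and nowhere else, with 11.1 and 22.6 CPM in the wounded HFSC lineage against 0.254 and 0.113 in HFSC, and 4.58 and 12.3 CPM in wounded EpdSC against 4.71 and 5.88 in EpdSC. The 2 wounded EpdSC libraries lay on either side of the unwounded EpdSC libraries. The response was 6.43 ± 0.72 in the HFSC lineage and 0.68 ± 0.54 in EpdSC (adjusted p = 0.000392 and 0.298), and the difference was 5.75 ± 0.89 (adjusted p = 0.0058).

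Crabp1, which encodes a cytoplasmic carrier of retinoic acid, moved in opposite directions. It stood at 0.131 and 0.037 CPM in the wounded HFSC lineage against 0.875 and 3.49 in HFSC, and 19.6 and 18.2 CPM in wounded EpdSC against 0.0406 and 0.0625 in EpdSC. It fell to the floor in the wounded HFSC lineage and was found almost only in wounded EpdSC among the EpdSC libraries. The responses were -4.57 ± 0.83 in the HFSC lineage and 8.44 ± 0.94 in EpdSC, and the difference, -13.01 ± 1.25 (adjusted p = 0.00105), had no overlap of libraries behind it in either lineage. Both EpdSC libraries and wounded HFSC lineage B held Crabp1 below 3 counts, which equal 0.122, 0.1875 and 0.111 CPM there. The sizes of both responses and of their difference thus rest on few counts and carry no usable fold. Crabp1 is also a gene of dermal fibroblasts, and the fibroblast list moved with it in wounded EpdSC, as given above; the part of such cells in its rise was not tested. All 4 genes kept their direction and their call under each of 19 other settings, the 8 omissions of a library included.

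**Figure D3:**
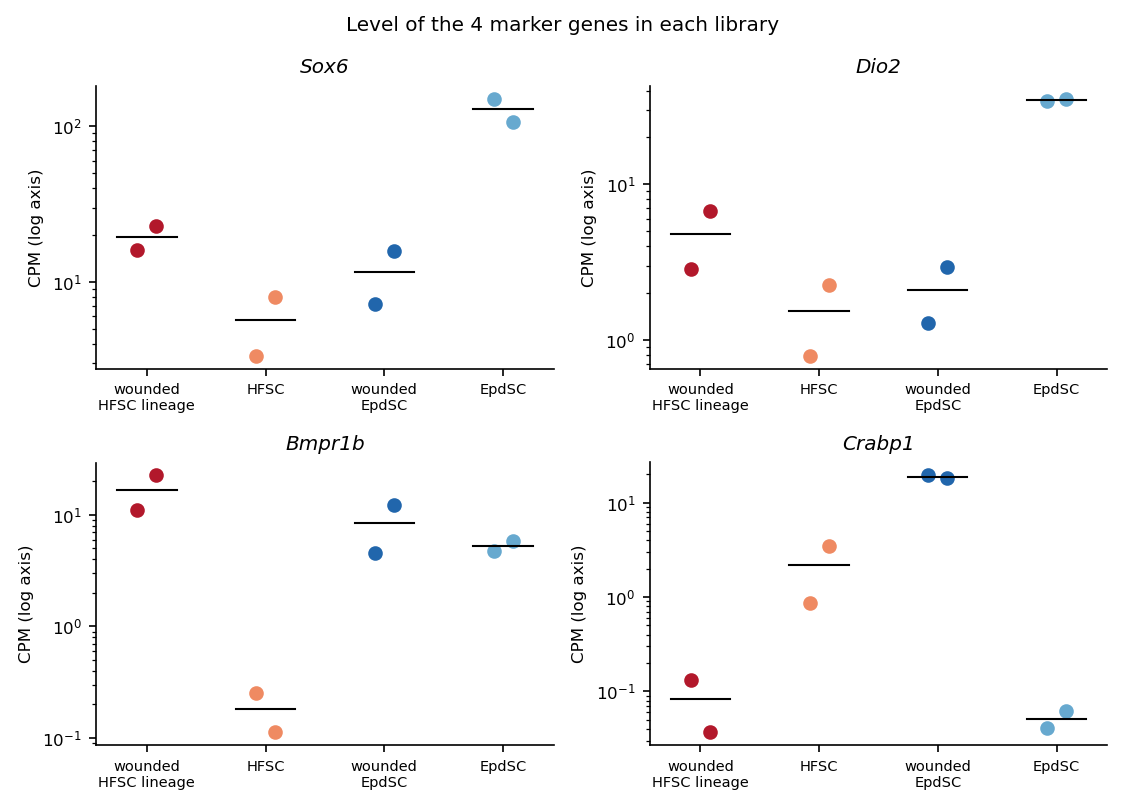
CPM (log axis) of Sox6, Dio2, Bmpr1b and Crabp1 in each of the 8 libraries; points are libraries and bars group means. Sox6 and Dio2 are highest in EpdSC, Bmpr1b is lowest in HFSC, at 0.254 and 0.113 CPM, and Crabp1 is highest in wounded EpdSC, at 19.6 and 18.2 CPM.

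Open chromatin was available as 1 peak list per population. The authors called peaks on pooled samples of mixed CD1/B6 female mice, without replicates. The HFSC and EpdSC samples came from mice aged 50 days, against 60 days for the CL RNA libraries. No age was found for the wounded sample. There were 56865 peaks in wounded cells sorted as integrin alpha 6 and Sca1 positive, a gate that does not separate the lineages, 55435 in HFSC and 25742 in EpdSC. The lists differ in length, so absence from the EpdSC list says less than absence from the others. Promoter windows, from 250 bases before to 50 after a RefSeq start on GRCm38.p6, were found for 10971 of the tested genes. The 3 promoters below, 250 bases each up to the start, are shown because Crabp1, Wnt16 and Dio2 carried peaks in different populations; capitals mark the GC box GGGCGG and the TATA box TATAAA on either strand.
Crabp1, chr9:54764498-54764747, plus strand: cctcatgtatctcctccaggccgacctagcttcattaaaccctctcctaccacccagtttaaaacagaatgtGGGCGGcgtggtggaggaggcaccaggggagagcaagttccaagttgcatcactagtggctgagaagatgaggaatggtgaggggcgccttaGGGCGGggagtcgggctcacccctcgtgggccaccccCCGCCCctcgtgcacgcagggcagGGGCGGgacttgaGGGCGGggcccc
Wnt16, chr6:22287977-22288226, plus strand: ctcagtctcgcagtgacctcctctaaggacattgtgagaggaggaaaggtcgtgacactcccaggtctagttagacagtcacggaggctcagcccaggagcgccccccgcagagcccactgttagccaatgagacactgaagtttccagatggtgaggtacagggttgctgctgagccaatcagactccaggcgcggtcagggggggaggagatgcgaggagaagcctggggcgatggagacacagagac
Dio2, chr12:90739039-90739288, minus strand: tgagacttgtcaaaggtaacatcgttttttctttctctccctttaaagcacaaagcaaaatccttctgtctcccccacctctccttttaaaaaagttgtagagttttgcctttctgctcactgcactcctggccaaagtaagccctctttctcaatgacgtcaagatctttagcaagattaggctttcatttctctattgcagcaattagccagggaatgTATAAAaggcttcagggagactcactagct
The Crabp1 window held a peak in HFSC alone, with a fold enrichment of 4.42 as the authors' peak caller gave it (chr9:54764486-54765873). That of Wnt16, which encodes a Wnt ligand, held a peak in EpdSC alone, with a fold enrichment of 5.72 (chr6:22288040-22289215). Dio2 held a peak in all 3 lists, with fold enrichments of 3.69 in wounded cells, 6.08 in HFSC and 3.41 in EpdSC, and no window of Sox6 or Bmpr1b held one in any list. Crabp1 has 5 GC boxes in the stretch shown and the other promoters none, while 32.7% of 32851 RefSeq promoter stretches of this length hold at least 1. Dio2 has the TATA box, 30 bases before its start, which 12.4% of stretches hold. The AP-1 motif TGACTCA, present on either strand in 4.5%, is in none of the 3; such matches describe letters only.

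Genes that rose in the HFSC lineage and fell in EpdSC numbered 49. Their median responses were 0.92 in the HFSC lineage and -0.90 in EpdSC (log2), against -0.10 and -0.04 over all genes, and 36 of the 49 were called lower in HFSC than in EpdSC before wounding. Wnt16 stood at 17.2 and 16.8 CPM in the wounded HFSC lineage against 6.52 and 8 in HFSC, and 4.39 and 8.86 CPM in wounded EpdSC against 39.4 and 38.2 in EpdSC. No groups overlapped within a lineage, and the difference was 3.78 ± 0.46 (adjusted p = 0.00247). Camk1d, a calcium and calmodulin dependent kinase, stood at 23.9 and 24.2 CPM in the wounded HFSC lineage against 2.2 and 4.43 in HFSC, and 10.2 and 23.4 CPM in wounded EpdSC against 50.6 and 50 in EpdSC. Its difference was 4.45 ± 0.62 (adjusted p = 0.00396). Lrrc8b, a subunit of the volume-regulated anion channel, stood at 3.93 and 5.1 CPM in the wounded HFSC lineage against 0.819 and 2.18 in HFSC, and 1.23 and 3.1 CPM in wounded EpdSC against 21.4 and 16.3 in EpdSC. Its unwounded EpdSC libraries were the highest of the 8, and its difference was 4.72 ± 0.79 (adjusted p = 0.00813). Phldb2, which ties microtubules to the cell cortex, and Gdpd2, a glycerophosphodiesterase, differed by 3.83 ± 0.82 and 3.43 ± 0.52 (adjusted p = 0.0206 and 0.00558). The axon guidance receptor Robo1, Sox4 and the desmosomal cadherin Dsg1a were in the class too. Sox4 stood at 26.3 and 36.2 CPM in the wounded HFSC lineage against 8.33 and 10.9 in HFSC, and 7.46 and 15.9 CPM in wounded EpdSC against 35.3 and 31.3 in EpdSC, so that its wounded and unwounded levels traded places between the lineages (difference 3.21 ± 0.52, adjusted p = 0.00716). Omissions of 1 library that ended a call were found for Phldb2 (4 of 8, up to adjusted p = 0.0757 without EpdSC A) and Dsg1a (4 of 8, up to adjusted p = 0.0676 without EpdSC A).

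The 289 genes that fell in the HFSC lineage and rose in EpdSC had medians of -2.40 and 3.08. Of these, 177 were called higher in HFSC than in EpdSC before wounding and 198 lower in the wounded HFSC lineage than in wounded EpdSC. Of 19 tested collagen genes 11 were lower in the difference and 2 higher (12 and 0 under upper quartile scaling), against 10.5% and 5.31% of all genes, and Col1a1, Col1a2, Col5a1, Col5a2, Col6a1 and Col6a2 were in this class. Col6a2, a chain of microfibrillar collagen VI, stood at 0.687 and 0.628 CPM in the wounded HFSC lineage against 63 and 54.4 in HFSC, and 68.7 and 68.5 CPM in wounded EpdSC against 0.487 and 1.62 in EpdSC. The libraries of both lineages held it at high level in 1 state and near 1 CPM in the other, with the states exchanged. The responses were -6.47 ± 0.47 and 6.10 ± 0.47, the difference -12.57 ± 0.67 (adjusted p = 0.000165). In BK, the further set described below, Col6a2 stood at 0.353 CPM in wounded EpdSC and 1.46 and 2.545 CPM in EpdSC. Its partner chain Col6a1 was at 0.785 and 0.776 CPM in the wounded HFSC lineage against 165 and 141 in HFSC, and 62 and 63.8 CPM in wounded EpdSC against 8.4 and 6.75 in EpdSC. Col1a2, a chain of fibrillar collagen I, stood at 2.35 and 0.924 CPM in the wounded HFSC lineage against 30.1 and 30.3 in HFSC, and 186 and 216 CPM in wounded EpdSC against 0.568 and 0.938 in EpdSC. Col1a1, the other chain, stood at 0.949 and 0.924 CPM in the wounded HFSC lineage against 4.46 and 5.15 in HFSC, and 236 and 249.8 CPM in wounded EpdSC against 0.527 and 0.563 in EpdSC. For the collagen I chains the wounded EpdSC level exceeded every other library, while HFSC held the next highest. Both are on the fibroblast list, whose sum was highest in wounded EpdSC, and the part of such cells was not tested. Nor was it tested for Col6a1, Col6a2 and the other collagens of this class. Col8a2, by contrast, fell in both lineages, to 0.523 and 0.517 CPM in the wounded HFSC lineage against 165 and 156 CPM in HFSC, and to 0.709 and 0.382 CPM in wounded EpdSC against 1.09 and 2.5 CPM in EpdSC. The 2 collagens with a higher difference, Col4a5 and Col23a1, also fell in both, further in EpdSC. With 1 library left out in turn, calls were lost for Col4a5 (6 of 8, up to adjusted p = 0.16 without EpdSC A) and Col23a1 (6 of 8, up to adjusted p = 0.145 without EpdSC A).

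Genes of the bulge were in the class too. Aspn, a small leucine-rich proteoglycan, stood at 0.0981 and 0.259 CPM in the wounded HFSC lineage against 96 and 47.1 in HFSC, and 1.32 and 3.73 CPM in wounded EpdSC against 0.122 and 0.625 in EpdSC. Its difference was -11.54 ± 1.16 (adjusted p = 0.00124). Its rise in EpdSC left it far below its HFSC level. Id2, a BMP-induced inhibitor of basic helix-loop-helix factors, stood at 5.33 and 4.18 CPM in the wounded HFSC lineage against 124 and 103 in HFSC, and 40 and 49.6 CPM in wounded EpdSC against 9.61 and 13.1 in EpdSC (difference -6.56 ± 0.37, adjusted p = 0.000181). Gli2, the transcription factor of hedgehog signalling, was at 12.3 and 9.98 CPM in the wounded HFSC lineage against 26.9 and 36.5 in HFSC, and 7.08 and 7.21 CPM in wounded EpdSC against 2.31 and 2.06 in EpdSC. Dkk3, a secreted protein of the Dickkopf family, stood at 32.8 and 47.3 CPM in the wounded HFSC lineage against 256 and 219 in HFSC, and 22.1 and 44.4 CPM in wounded EpdSC against 9.7 and 13.3 in EpdSC. In both, the gap between HFSC and EpdSC before wounding was called, with 3.85 and 4.37, and that between the wounded groups, with 0.64 and 0.27 (log2), was not (adjusted p = 0.0851 and 0.571). Atp2a3, a calcium pump of the endoplasmic reticulum, and Wdfy4, a gene of antigen presenting dendritic cells, were named by the same rule. Atp2a3 stood at 0.327 and 0.296 CPM in the wounded HFSC lineage against 12.8 and 12.1 in HFSC, and 25.5 and 22.4 CPM in wounded EpdSC against 0.406 and 0.188 in EpdSC. Wdfy4 stood at 0.949 and 0.222 CPM in the wounded HFSC lineage against 2.57 and 2.74 in HFSC, and 44.5 and 38 CPM in wounded EpdSC against 0.0811 and 0 in EpdSC. The Wdfy4 level was highest in the libraries with the high leukocyte sums, and the part of such cells was not tested.

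**Figure D4:**
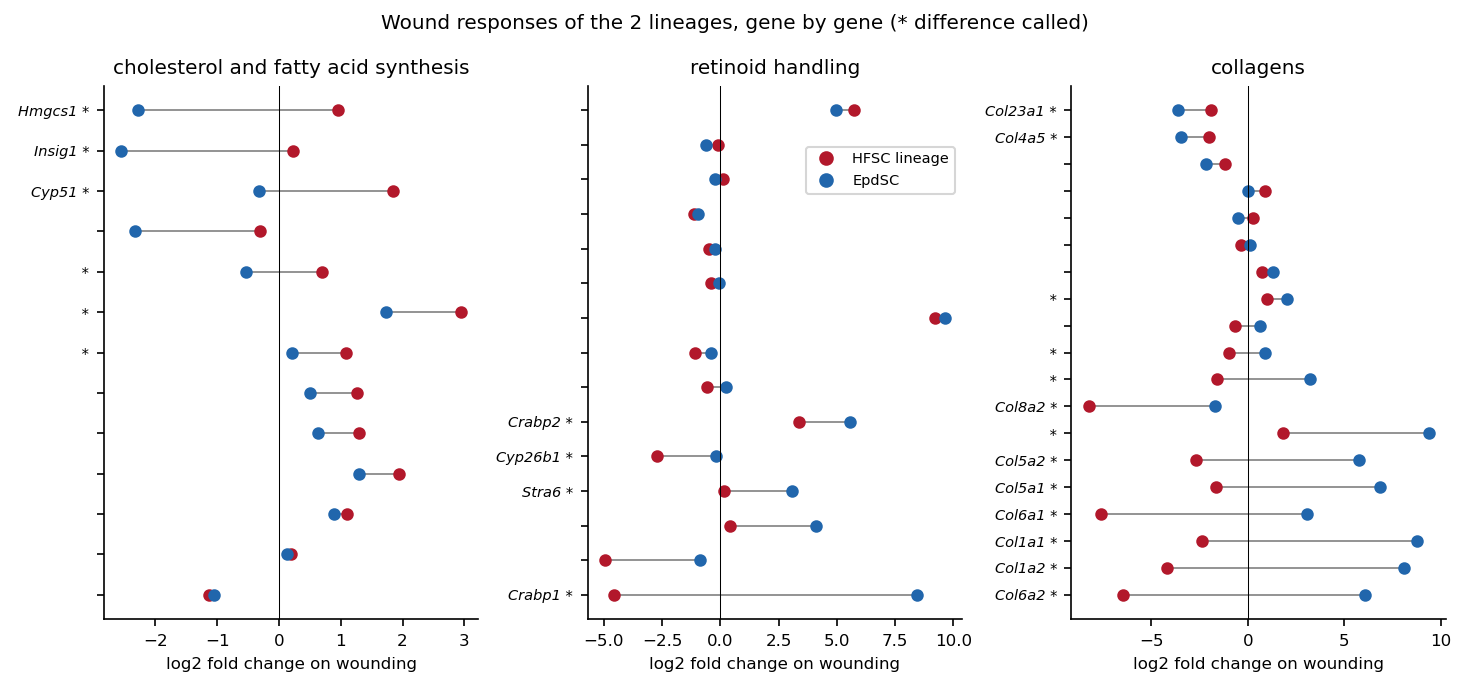
Log2 fold change on wounding in the HFSC lineage (red) and in EpdSC (blue) for genes of 3 lists with a count in every group, ordered by their difference; asterisks mark called differences, only genes named in the text carry a label, and genes not reported here are left out. The cholesterol genes drawn with an asterisk lie further right in the HFSC lineage, and most collagens with an asterisk further right in EpdSC.

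A rise limited to the HFSC lineage was seen in 193 genes, with a median response of 1.40 in the HFSC lineage and -0.11 in EpdSC. Besides Bmpr1b, Ptprz1, a receptor tyrosine phosphatase, stood at 55 and 80.2 CPM in the wounded HFSC lineage against 3.36 and 5 in HFSC, and 14.4 and 43.4 CPM in wounded EpdSC against 26.2 and 37.7 in EpdSC. Its difference was 4.16 ± 0.72 (adjusted p = 0.00898). Crispld2, a secreted protein, stood at 22.7 and 23.6 CPM in the wounded HFSC lineage against 0.621 and 1.47 in HFSC, and 40.1 and 44.6 CPM in wounded EpdSC against 38 and 22 in EpdSC (difference 4.00 ± 0.56, adjusted p = 0.00396). In both genes the HFSC libraries lay below the other 6. The same held for Ston2, an adaptor of endocytosis, and Depdc7, with differences of 3.74 ± 0.53 and 3.32 ± 0.40 (adjusted p = 0.00431 and 0.00227). Serpinb3b, an epidermal protease inhibitor, stood at 64.1 and 81.2 CPM in the wounded HFSC lineage against 5.31 and 4.4 in HFSC, and 7.42 and 19 CPM in wounded EpdSC against 13.3 and 4.62 in EpdSC; its EpdSC groups overlapped. Krt10, the keratin of suprabasal epidermis, rose to 12820 and 11200 CPM in the wounded HFSC lineage against 1267 and 2096 CPM in HFSC, and had 6120 and 6691 CPM in wounded EpdSC against 6446 and 3522 CPM in EpdSC (difference 2.47 ± 0.51, adjusted p = 0.0181). Il33, an alarm cytokine, was in the class at an adjusted p of 0.0485. Of the 193 genes, 64 were called lower in HFSC than in EpdSC before wounding, and 13 were called again under every omission of a library. The threshold was missed under omissions of 1 library by Serpinb3b (5 of 8, up to adjusted p = 0.115 without EpdSC A), Krt10 (1 of 8, up to adjusted p = 0.0599 without EpdSC A) and Il33 (6 of 8, up to adjusted p = 0.148 without EpdSC A).

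A fall limited to the HFSC lineage was seen in 274 genes, with medians of -2.07 in the HFSC lineage and 0.06 in EpdSC, and 128 of them had been called higher in HFSC than in EpdSC before wounding. Cd34 was among them (difference -8.37 ± 0.73, adjusted p = 0.000769), but the unwounded cells were gated on its protein and the wounded cells were not, so its change is no finding. Cck, which encodes the peptide cholecystokinin, was at 0 and 0 CPM in the wounded HFSC lineage against 22.8 and 26.5 in HFSC, and 0.189 and 0.0424 CPM in wounded EpdSC against 0.0406 and 0.375 in EpdSC, at least 236-fold lower in the wounded HFSC lineage. Mrgprf, a receptor of the Mas-related family, stood at 0.131 and 0.111 CPM in the wounded HFSC lineage against 23.9 and 22.1 in HFSC, and 0.756 and 0.424 CPM in wounded EpdSC against 0.527 and 0.312 in EpdSC (difference -7.94 ± 0.64, adjusted p = 0.00056). Camk4, a calcium dependent kinase, stood at 0.36 and 1.33 CPM in the wounded HFSC lineage against 46.2 and 23.9 in HFSC, and 1.18 and 1.4 CPM in wounded EpdSC against 0.852 and 0.813 in EpdSC. Outside HFSC, no library held more than 1.4 CPM of Cck, Mrgprf or Camk4. Wfdc3 and Glb1l2 differed by -5.86 ± 1.05 and -6.05 ± 0.58 (adjusted p = 0.0106 and 0.00105). Calls lost when 1 library was left out were those of Cck (1 of 8, up to adjusted p = 0.0968 without wounded EpdSC A).

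Of 13 transcription factors of the bulge, 6 were lower in the difference (Sox9, Lhx2, Nfatc1, Tbx1, Tcf7l1 and Gli2) and none higher, in several classes, against 10.5% and 5.31% of all genes. Of the 13, 12 fell in the HFSC lineage, against 24.7% of all genes, while 8 fell and 3 rose in EpdSC, against 28.2% and 30.2%. Sox9 stood at 43.8 and 44.6 CPM in the wounded HFSC lineage against 149.8 and 165 in HFSC, and 22.4 and 34.6 CPM in wounded EpdSC against 18.6 and 25.4 in EpdSC (difference -2.21 ± 0.37, adjusted p = 0.0077). It fell in the HFSC lineage, where it stayed above every EpdSC library, wounded or not. Nfatc1, a factor of bulge quiescence, stood at 25 and 21.6 CPM in the wounded HFSC lineage against 309.8 and 323 in HFSC, and 17.8 and 24.5 CPM in wounded EpdSC against 58.7 and 66.8 in EpdSC. Tbx1 stood at 11.6 and 13.1 CPM in the wounded HFSC lineage against 104 and 106 in HFSC, and 3.54 and 3.14 CPM in wounded EpdSC against 0.69 and 2.38 in EpdSC. Nfatc1 fell in both lineages, to wounded levels that differed by 0.14 (adjusted p = 0.624). Of 13 surface and secreted markers of the bulge 7 were lower and 1, Npnt, was higher, and all 13 fell in the HFSC lineage. Cd34 is counted among the 7 and the 13, although its fall follows the gate and is no finding. Both lists were compiled of genes known to be high in HFSC, the group in which a fall can be seen. Some omissions of a library ended the call of Sox9 (1 of 8, up to adjusted p = 0.0539 without EpdSC A), Tcf7l1 (1 of 8, up to adjusted p = 0.0613 without EpdSC A) and Npnt (6 of 8, up to adjusted p = 0.108 without EpdSC A).

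A fall limited to EpdSC was seen in 285 genes, with medians of 0.02 in the HFSC lineage and -1.76 in EpdSC. Skint7, of the Skint family that shapes epidermal gamma delta T cells, stood at 6.08 and 14.2 CPM in the wounded HFSC lineage against 7.93 and 10.2 in HFSC, and 2.5 and 5.72 CPM in wounded EpdSC against 126 and 138 in EpdSC (difference 5.16 ± 0.68, adjusted p = 0.0033). Il20ra, a receptor chain for interleukin 20 family cytokines, stood at 13.2 and 10.2 CPM in the wounded HFSC lineage against 5.2 and 9.81 in HFSC, and 8.93 and 9.24 CPM in wounded EpdSC against 137 and 137 in EpdSC (difference 4.55 ± 0.44, adjusted p = 0.00105). In both, unwounded EpdSC stood alone above the other 6 libraries. Serpinb2, an inhibitor of plasminogen activators, stood at 112 and 204 CPM in the wounded HFSC lineage against 53.5 and 151 in HFSC, and 41.8 and 116 CPM in wounded EpdSC against 911 and 1037 in EpdSC. Pls1, an actin bundling protein, stood at 0.589 and 0.85 CPM in the wounded HFSC lineage against 0.819 and 1.17 in HFSC, and 0.425 and 1.23 CPM in wounded EpdSC against 29.1 and 21.6 in EpdSC. Hlf, a transcription factor of the PAR family, and the laminin chain Lama1 differed by 3.85 ± 0.50 and 3.86 ± 1.00 (adjusted p = 0.003 and 0.0394). Igfbp3, which binds insulin-like growth factors, stood at 167 and 172 CPM in the wounded HFSC lineage against 189 and 180.5 in HFSC, and 152 and 186 CPM in wounded EpdSC against 2190 and 1909 in EpdSC. Its difference was 3.47 ± 0.27 (adjusted p = 0.000541). Omissions of 1 library that ended a call were found for Serpinb2 (2 of 8, up to adjusted p = 0.0639 without EpdSC A) and Lama1 (5 of 8, up to adjusted p = 0.128 without EpdSC A).

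Epidermal regulators were spread over the classes. Of 17 tested, 5 were higher in the difference, among them Klf5, Gata3, Ly6a and Trp63 (3 under upper quartile scaling), and 2 lower (Sox7 and Irx4). Over all genes, 5.31% were higher and 10.5% lower. Trp63, the master regulator of stratified epithelium, stood at 624 and 744 CPM in the wounded HFSC lineage against 731 and 779.9 in HFSC, and 252 and 461 CPM in wounded EpdSC against 1217 and 1168 in EpdSC (difference 1.60 ± 0.40, adjusted p = 0.0366). Klf5 stood at 94 and 91.6 CPM in the wounded HFSC lineage against 40.8 and 69.8 in HFSC, and 38.9 and 67.4 CPM in wounded EpdSC against 183 and 155 in EpdSC (difference 2.42 ± 0.47, adjusted p = 0.0144). For both, wounded EpdSC fell below EpdSC while the HFSC lineage changed by -0.14 and 0.75, short of the threshold. Ly6a belongs to a gated antigen and is no finding, although it is counted among the 5. With 1 library left out in turn, calls were lost for Klf5 (1 of 8, up to adjusted p = 0.0714 without EpdSC A), Ly6a (5 of 8, up to adjusted p = 0.117 without EpdSC B), Trp63 (6 of 8, up to adjusted p = 0.126 without EpdSC A) and Sox7 (6 of 8, up to adjusted p = 0.142 without EpdSC A).

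Of 16 genes of cholesterol and fatty acid synthesis, 8 were higher in the difference, against 5.31% of all genes, and 1 was lower. In the HFSC lineage 10 of the 16 rose and 1 fell, against 21.4% and 24.7% of all genes. In EpdSC 4 rose and 5 fell, against 30.2% and 28.2%. The median responses were 1.02 in the HFSC lineage and -0.10 in EpdSC. Under upper quartile scaling 4 were higher in the difference, and the EpdSC median was 0.07. With DESeq2's size factors the EpdSC median was also above 0 (0.01). Hmgcs1, which makes the precursor of mevalonate, stood at 409.6 and 501 CPM in the wounded HFSC lineage against 238 and 233 in HFSC, and 95 and 242 CPM in wounded EpdSC against 912 and 730.5 in EpdSC (difference 3.24 ± 0.56, adjusted p = 0.00903). Insig1, the sterol-sensing brake of the pathway, stood at 23.1 and 26.3 CPM in the wounded HFSC lineage against 23.1 and 19.2 in HFSC, and 13.1 and 19.9 CPM in wounded EpdSC against 114 and 81.4 in EpdSC. Both were highest in unwounded EpdSC, fell there on wounding, and did not pass the test in the HFSC lineage. Cyp51, which demethylates lanosterol, rose in the HFSC lineage instead, with 197 and 227 CPM in the wounded HFSC lineage against 59.5 and 58.4 in HFSC, and 88.2 and 167 CPM in wounded EpdSC against 166 and 154 in EpdSC (difference 2.18 ± 0.41, adjusted p = 0.0126). Wounded EpdSC A was the lowest of the 8 libraries for Hmgcs1. The threshold was missed under omissions of 1 library by Cyp51 (2 of 8, up to adjusted p = 0.065 without EpdSC A).

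A rise limited to EpdSC was seen in 422 genes, with medians of -0.11 in the HFSC lineage and 3.23 in EpdSC. Among those with the largest differences, Fgr, Fgl2, P2ry6, Cd8b1 and Lrrc15 were at 0 in both EpdSC libraries. Fgr, a Src family kinase of myeloid cells, was at 0.458 and 0.37 CPM in the wounded HFSC lineage against 0.0847 and 0.413 in HFSC, and 47.1 and 40.7 CPM in wounded EpdSC against 0 and 0 in EpdSC, at least 284-fold higher in wounded EpdSC. Cd8b1, a T cell co-receptor chain, was at 0.0654 and 0.148 CPM in the wounded HFSC lineage against 0.0282 and 0.113 in HFSC, and 13.3 and 19.8 CPM in wounded EpdSC against 0 and 0 in EpdSC, at least 107-fold higher. Of the 11 leukocyte genes tested, 10 were lower in the difference and none higher, in several classes, against 10.5% and 5.31% of all genes. All 11 rose in EpdSC, against 30.2% of all genes. In the HFSC lineage 5 fell and 2 rose, against 24.7% and 21.4%. Lrrc15 is a gene of activated fibroblasts, and 6 of 10 fibroblast genes were lower, against the same 10.5%. In all, 356 of the 1551 lower calls had a mean under 1 CPM in each of the other 3 groups, as did 1699 of all genes tested. How far cells of these types in the YFP negative gate account for such calls was not tested. Calls lost when 1 library was left out were those of Cd8b1 (1 of 8, up to adjusted p = 0.0881 without HFSC B) and Lrrc15 (3 of 8, up to adjusted p = 0.0763 without EpdSC A).

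Krt17, Krt79 and Tgfb3 were in the same class. Krt17, a wound keratin also made in the follicle, stood at 3161 and 3853 CPM in the wounded HFSC lineage against 2030 and 2570 in HFSC, and 7104 and 4583 CPM in wounded EpdSC against 287 and 427 in EpdSC, so that it was already high in HFSC (difference -3.42 ± 0.45, adjusted p = 0.00317). Krt79, a keratin of the upper follicle, stood at 1689 and 1488 CPM in the wounded HFSC lineage against 1863 and 1578 in HFSC, and 407 and 335 CPM in wounded EpdSC against 45.5 and 51 in EpdSC, and rose in EpdSC. Tgfb3, a ligand of the transforming growth factor beta family, stood at 38 and 42.6 CPM in the wounded HFSC lineage against 37.9 and 53.2 in HFSC, and 24.6 and 38.1 CPM in wounded EpdSC against 3.29 and 4.81 in EpdSC (difference -3.14 ± 0.43, adjusted p = 0.00392). Wounded and unwounded libraries of the HFSC lineage overlapped, and those of EpdSC did not.

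Responses of 1 direction and unequal size were called for 517 genes. Krt6a, the classical wound keratin, stood at 13280 and 12530 CPM in the wounded HFSC lineage against 114 and 100.3 in HFSC, and 19120 and 14570 CPM in wounded EpdSC against 3.53 and 4.56 in EpdSC. It rose in both lineages, by 6.91 and 12.03 on the log2 scale, and the difference of -5.12 ± 0.39 (adjusted p = 0.000416) came with a lower start in EpdSC, since the wounded groups differed by -0.38 (adjusted p = 0.253). Aqp3, the water and glycerol channel of the epidermis, stood at 2088 and 1946 CPM in the wounded HFSC lineage against 813 and 927 in HFSC, and 2539 and 2268 CPM in wounded EpdSC against 84.8 and 131 in EpdSC (difference -3.26 ± 0.35, adjusted p = 0.00153). The list of wound-induced keratins and alarmins had 16 members tested. Of these, 14 rose in the HFSC lineage and all 16 in EpdSC, against 21.4% and 30.2% of all genes, with median responses of 8.67 and 9.85. In the difference 3 were lower and 1, Il1f9, higher, against 10.5% and 5.31%. Tmprss11g, an epithelial serine protease, was at 115 and 126 CPM in the wounded HFSC lineage against 0 and 0 in HFSC, and 43.7 and 80.2 CPM in wounded EpdSC against 0.406 and 0.438 in EpdSC, at least 1221-fold higher in the wounded HFSC lineage. Krt1 rose in both lineages, to 21930 and 18670 CPM in the wounded HFSC lineage against 518 and 887 CPM in HFSC, and to 20590 and 14970 CPM in wounded EpdSC against 4113 and 2091 CPM in EpdSC. The wounded levels of Krt1 overlapped, and its higher difference (2.33 ± 0.58, adjusted p = 0.0343) came with the lower HFSC start. Some omissions of a library ended the call of Il1f9 (1 of 8, up to adjusted p = 0.059 without EpdSC A) and Krt1 (4 of 8, up to adjusted p = 0.108 without EpdSC A).

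Among genes that fell in both lineages, the fall was deeper in EpdSC for Adamts14, Cdh4, Slc6a2, Gabrp and Bmp4, and deeper in the HFSC lineage for Ltbp2. Adamts14, a procollagen protease, stood at 4.42 and 2.7 CPM in the wounded HFSC lineage against 6.32 and 13.8 in HFSC, and 4.2 and 6.15 CPM in wounded EpdSC against 314 and 264 in EpdSC (difference 4.31 ± 0.59, adjusted p = 0.00382). Cdh4, a classical cadherin, stood at 0.491 and 0.554 CPM in the wounded HFSC lineage against 1.78 and 4.25 in HFSC, and 1.09 and 1.19 CPM in wounded EpdSC against 136 and 103 in EpdSC (difference 4.20 ± 0.63, adjusted p = 0.00519). Slc6a2, the noradrenaline transporter, and Gabrp, a subunit of the receptor for gamma-aminobutyric acid, differed by 4.68 ± 0.66 and 4.50 ± 0.86 (adjusted p = 0.00413 and 0.0135). All 4 were highest in unwounded EpdSC. Ltbp2, a latent TGF-beta binding protein, was highest in HFSC, with 0.294 and 0.37 CPM in the wounded HFSC lineage against 184 and 148 in HFSC, and 1.56 and 1.4 CPM in wounded EpdSC against 3.25 and 6.31 in EpdSC (difference -7.28 ± 0.53, adjusted p = 0.000377). C1qa, C1qb, Ms4a7, Cyp4f18 and Tmem119 had a lower difference too, but rose in both lineages, further in EpdSC. All were under 3 CPM outside wounded EpdSC, where C1qb stood at 184 and 122 CPM. C1qa and C1qb are complement genes of macrophages. Omissions of 1 library that ended a call were found for Gabrp (2 of 8, up to adjusted p = 0.0639 without EpdSC A), C1qa (3 of 8, up to adjusted p = 0.92 without HFSC B), C1qb (4 of 8, up to adjusted p = 0.168 without HFSC B), Ms4a7 (5 of 8, up to adjusted p = 1 without HFSC B), Cyp4f18 (1 of 8, up to adjusted p = 0.0515 without HFSC A) and Tmem119 (1 of 8, up to adjusted p = 0.0537 without HFSC B).

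Of 17 BMP ligands and antagonists tested, 4 were higher in the difference and 4 lower, against 5.31% and 10.5% of all genes. The ligands Bmp2, Bmp3 and Bmp4 and the modulator Twsg1 were higher, and the ligand Bmp6, the antagonists Nog and Grem1 and the secreted glycoprotein Fstl1 were lower. Bmp4 stood at 0.622 and 0.739 CPM in the wounded HFSC lineage against 3.05 and 4.47 in HFSC, and 0.283 and 0.975 CPM in wounded EpdSC against 58.9 and 66.2 in EpdSC (difference 4.14 ± 0.65, adjusted p = 0.00617). Bmp2 stood at 2.39 and 3.81 CPM in the wounded HFSC lineage against 15.3 and 32.1 in HFSC, and 0.945 and 2.42 CPM in wounded EpdSC against 74.1 and 70.1 in EpdSC. Both were highest in unwounded EpdSC and fell in both lineages. Nog, whose product noggin binds BMPs, stood at 0.294 and 0.185 CPM in the wounded HFSC lineage against 23.3 and 18.4 in HFSC, and 0.756 and 0.466 CPM in wounded EpdSC against 0.852 and 1.19 in EpdSC (difference -5.68 ± 0.60, adjusted p = 0.00147). Grem1, another antagonist, stood at 0.131 and 0 CPM in the wounded HFSC lineage against 161 and 83.5 in HFSC, and 0 and 0.763 CPM in wounded EpdSC against 0.933 and 1 in EpdSC. Fstl1, also made by fibroblasts, stood at 3.21 and 2.96 CPM in the wounded HFSC lineage against 22.6 and 14 in HFSC, and 13.8 and 25.8 CPM in wounded EpdSC against 0.0811 and 0.188 in EpdSC. All 3 fell in the HFSC lineage, and Fstl1 rose in EpdSC. Of 18 receptors and effectors, Bmpr1b and Smad5 were higher, and Smad6, Id1 and Id2 lower. The inhibitory Smad6 stood at 2.81 and 2.44 CPM in the wounded HFSC lineage against 7.54 and 10.7 in HFSC, and 2.88 and 2.25 CPM in wounded EpdSC against 0.69 and 1.31 in EpdSC. The receptor Bmpr1a, which was not called, stood at 265 and 359.6 CPM in the wounded HFSC lineage against 194 and 153 in HFSC, and 77.7 and 157 CPM in wounded EpdSC against 170.5 and 192 in EpdSC, with a difference of 1.47 ± 0.48 (adjusted p = 0.0689). With 1 library left out in turn, calls were lost for Bmp2 (6 of 8, up to adjusted p = 0.148 without EpdSC A), Bmp3 (3 of 8, up to adjusted p = 0.0672 without EpdSC B), Twsg1 (6 of 8, up to adjusted p = 0.114 without EpdSC A), Bmp6 (5 of 8, up to adjusted p = 0.0786 without EpdSC B), Grem1 (2 of 8, up to adjusted p = 0.977 without wounded EpdSC B), Smad5 (6 of 8, up to adjusted p = 0.117 without HFSC B), Smad6 (1 of 8, up to adjusted p = 0.0543 without EpdSC A) and Id1 (6 of 8, up to adjusted p = 0.172 without wounded HFSC lineage B).

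Retinoid genes were lower in 5 of 18 cases and higher in none, against 10.5% and 5.31% of all genes. Crabp2, a carrier of retinoic acid inside cells, stood at 395 and 416 CPM in the wounded HFSC lineage against 45.5 and 32.6 in HFSC, and 412 and 406 CPM in wounded EpdSC against 9.82 and 7.5 in EpdSC (difference -2.18 ± 0.32, adjusted p = 0.00483). It rose in both lineages, further in EpdSC, where it started lower. Stra6, the retinol uptake receptor, rose in EpdSC alone, with 17.6 and 17 CPM in the wounded HFSC lineage against 15.2 and 16 in HFSC, and 17.8 and 25.9 CPM in wounded EpdSC against 2.92 and 2.19 in EpdSC. Cyp26b1, which breaks retinoic acid down, fell in the HFSC lineage alone, with 5.79 and 6.25 CPM in the wounded HFSC lineage against 40.7 and 38.7 in HFSC, and 6.24 and 5.6 CPM in wounded EpdSC against 4.99 and 8.44 in EpdSC. Of the 5, Crabp1 was the one with opposite arms. Of 12 thyroid hormone genes tested, Dio2 and the transporter Slc16a10 were higher and none lower (3 higher and 1 lower under upper quartile scaling), with Slc16a10 at 7.92 and 7.65 CPM in the wounded HFSC lineage against 19.3 and 25.4 in HFSC, and 6.28 and 8.78 CPM in wounded EpdSC against 70.5 and 57.6 in EpdSC. The threshold was missed under omissions of 1 library by Slc16a10 (5 of 8, up to adjusted p = 0.114 without EpdSC A).

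Of 29 Wnt ligands and receptors, the ligands Wnt3, Wnt4, Wnt5a and Wnt16 and the receptor Lrp4 were higher, and the receptors Fzd1, Fzd2, Fzd7 and Lgr5 were lower, 5 and 4 genes against 5.31% and 10.5% of all. The call of Wnt4 was lost with DESeq2's size factors, upper quartile scaling and the replicate block. Wnt5a stood at 82.5 and 107 CPM in the wounded HFSC lineage against 1.78 and 5.33 in HFSC, and 38.8 and 79.4 CPM in wounded EpdSC against 20.4 and 27.1 in EpdSC (difference 3.43 ± 0.73, adjusted p = 0.0202). Wnt3 stood at 50.5 and 43.8 CPM in the wounded HFSC lineage against 26.7 and 58.8 in HFSC, and 76 and 62.1 CPM in wounded EpdSC against 292 and 233 in EpdSC (difference 2.07 ± 0.50, adjusted p = 0.0316). Wnt5a rose in the HFSC lineage, and Wnt3 fell in EpdSC. Fzd2 stood at 11.2 and 10.5 CPM in the wounded HFSC lineage against 124 and 133 in HFSC, and 21.8 and 12.2 CPM in wounded EpdSC against 9.65 and 11 in EpdSC (difference -4.29 ± 0.40, adjusted p = 0.000965). Fzd7 stood at 61 and 61.2 CPM in the wounded HFSC lineage against 360.4 and 287 in HFSC, and 26.6 and 33 CPM in wounded EpdSC against 20.3 and 31.1 in EpdSC. The 3 frizzled receptors fell in the HFSC lineage and did not pass the test in EpdSC. Of 16 Wnt antagonists and feedback targets 6 were lower, with Wif1, a secreted Wnt inhibitor, at 1.18 and 0.85 CPM in the wounded HFSC lineage against 22.4 and 33.9 in HFSC, and 0.283 and 0.17 CPM in wounded EpdSC against 0 and 0.0625 in EpdSC. No EpdSC library, wounded or not, held more than 0.283 CPM of it, so that the called rise there rests on few counts. Znrf3, the feedback ligase that removes frizzled receptors, was the one higher member, with 19.1 and 27.4 CPM in the wounded HFSC lineage against 37 and 35.4 in HFSC, and 4.44 and 9.2 CPM in wounded EpdSC against 93.9 and 85.3 in EpdSC. Calls lost when 1 library was left out were those of Wnt3 (4 of 8, up to adjusted p = 0.124 without EpdSC A), Wnt4 (6 of 8, up to adjusted p = 0.165 without EpdSC A) and Wnt5a (2 of 8, up to adjusted p = 0.0801 without EpdSC B).

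Lists of wound programmes were read against 15.8% of all genes called in the difference. Over all genes, 21.4% rose and 24.7% fell in the HFSC lineage, and 30.2% rose and 28.2% fell in EpdSC. Of 20 cell cycle genes 11 rose in the HFSC lineage and 16 in EpdSC, with medians of 1.11 and 1.16, and 1, Mcm5, was lower in the difference (4 under upper quartile scaling). Of 19 genes of glycolysis and hypoxia, 15 rose in the HFSC lineage and 16 in EpdSC, with Pfkfb3 higher and Hk2 lower. Of 22 AP-1 and immediate early genes, 21 fell in the HFSC lineage and 20 in EpdSC, by medians of -5.50 and -5.13. Fos stood at 41.9 and 55.6 CPM in the wounded HFSC lineage against 4829 and 8623 in HFSC, and 44.8 and 96.8 CPM in wounded EpdSC against 9007 and 7227 in EpdSC. Its difference was -0.27 ± 0.59 (adjusted p = 0.762). Of the 22, 6 were called in the difference: Egr2 and Egr3 were higher, and Batf3, Ier3, Nr4a3 and Klf2 lower. Immediate early genes also respond to how tissue is handled and dissociated, and the unwounded and wounded cells differed in their source; the part of handling was not tested. Of 16 genes of the basal layer, Trp63 alone was called in the difference. Some omissions of a library ended the call of Mcm5 (6 of 8, up to adjusted p = 0.113 without EpdSC B), Pfkfb3 (6 of 8, up to adjusted p = 0.146 without EpdSC A), Egr2 (6 of 8, up to adjusted p = 0.102 without EpdSC B), Egr3 (6 of 8, up to adjusted p = 0.134 without EpdSC B), Batf3 (6 of 8, up to adjusted p = 0.1 without EpdSC A), Nr4a3 (6 of 8, up to adjusted p = 0.109 without wounded HFSC lineage A), Klf2 (4 of 8, up to adjusted p = 0.0905 without EpdSC A) and Trp63 (6 of 8, up to adjusted p = 0.126 without EpdSC A).

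Libraries of the set called BK were outside the contrast: 2 of HFSC, 1 of wounded EpdSC and 2 of EpdSC, from B6 mice aged 60 days, with unwounded gates as above and the wounded cells sorted as lineage negative and integrin alpha 6 high without a YFP mark. The column of the wounded library carries a further tag that the labels do not explain. All 5 are labelled female, but the 4 Y-linked genes and Xist set the unwounded ones apart. The Y-linked genes summed to 0.303 CPM in BK wounded EpdSC, against 176 and 168 CPM in BK HFSC and 106 and 324 CPM in BK EpdSC. Xist stood at 2028 CPM in BK wounded EpdSC and at 6.25 CPM or less in the 4 unwounded libraries, which thus go against their label. Sex, gate, single library and wound therefore cannot be told apart in the BK wound comparison, whereas BK HFSC and BK EpdSC share the mismatch. The leukocyte list summed to 53.8 CPM in BK wounded EpdSC and 119 and 51.7 CPM in BK EpdSC, and the fibroblast list to 280 CPM in BK wounded EpdSC and 628 and 284 CPM in BK EpdSC.

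The unwounded lineage difference was also measured in BK, where 7.91% of 14663 genes were called higher in HFSC and 6.47% lower. CPM and adjusted p-values of BK libraries come from a fit of that set alone. Of the 49 genes that rose in the HFSC lineage and fell in EpdSC, 29 were called lower in BK HFSC than in BK EpdSC and none higher. Of the 289 with the reverse pattern, 273 were measured, and 156 were called higher in BK HFSC and 2 lower. Of 273 measured genes with a fall limited to the HFSC lineage, 119 were higher in BK HFSC, and of 285 with a fall limited to EpdSC, 71 were lower. Sox6 had 2.82 and 5.68 CPM in BK HFSC and 60 and 104 CPM in BK EpdSC, a log2 fold change of -4.27 ± 0.51 (adjusted p = 0.00588). Crabp1 had 23.8 and 16.6 CPM in BK HFSC and 0.234 and 0.0463 CPM in BK EpdSC (adjusted p = 0.0039). Bmpr1b had 0.0829 and 0.26 CPM in BK HFSC and 4.12 and 2.5 CPM in BK EpdSC (adjusted p = 0.0124). Dio2 had 3.32 and 1.64 CPM in BK HFSC and 7.89 and 23.2 CPM in BK EpdSC (adjusted p = 0.0405). The starting levels on which the differences of responses rest were thus in the same order in the second set.

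The EpdSC wound response was not the same in both sets. In BK, 1.77% of genes were called higher in wounded EpdSC and 6.21% lower. In 1 fit of both sets, 30.9% of 16116 genes differed between the CL and BK responses of EpdSC. The 273 measured genes that rose in EpdSC and fell in the HFSC lineage had a median EpdSC response of 2.82 in CL and -0.79 in BK, where 6 were higher and 12 lower. The 374 measured genes with a rise limited to EpdSC had medians of 2.81 in CL and -0.28 in BK, with 3 higher and 2 lower. These classes were chosen by their rise in CL, which favours a higher CL value, so their medians and counts are given as a description and support no difference between the sets. Sox6 stood at 69 CPM in BK wounded EpdSC, within its BK EpdSC range, and the CL response less the BK response was -3.11 ± 0.75 (adjusted p = 0.0127). Crabp1 stood at 0.404 CPM in BK wounded EpdSC, and the CL response less the BK response was 7.24 ± 1.54 (adjusted p = 0.00743). Dio2 moved the other way, with 163 CPM in BK wounded EpdSC, above both BK EpdSC libraries (adjusted p = 0.0467), and the CL response less the BK response was -7.32 ± 1.00 (adjusted p = 0.00115). Bmpr1b stood at 7.17 CPM in BK wounded EpdSC, a log2 fold change of 1.11 ± 0.66 (adjusted p = 0.28). The BK counts moved with single libraries. HFSC against EpdSC gave 2108 calls with all libraries, 1260 and 1378 without HFSC 1 or 2, and 6486 and 4903 without EpdSC 1 or 2. The wound comparison gave 1169 calls, 421 and 398 without HFSC 1 or 2, and 6848 and 6635 without EpdSC 1 or 2.

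**Figure D5:**
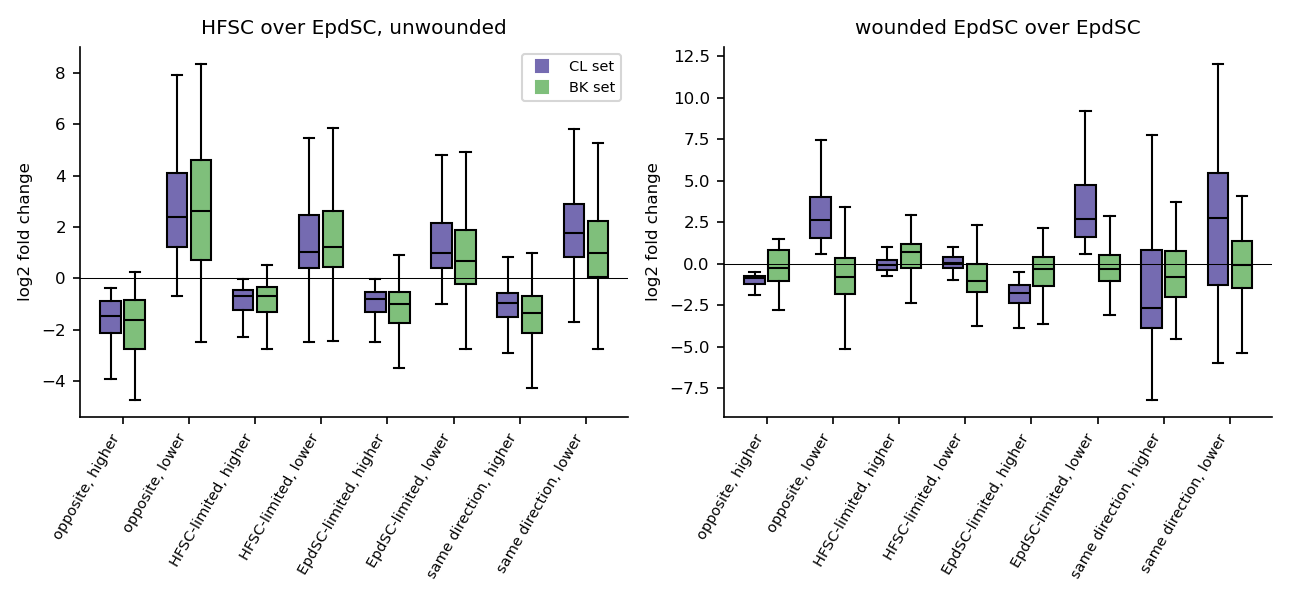
Log2 fold changes of genes with a count in every CL group and measured in BK, by response class, in the CL set (purple) and the BK set (green). Boxes span the quartiles with the median as a line and whiskers reach 1.5 box lengths; the left plot shows HFSC over EpdSC in unwounded skin, where the medians of a class have the same sign in both sets, and the right plot wounded EpdSC over EpdSC, where the classes that rose in CL centre near or below 0 in BK.

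Promoter peaks were counted by class. Of 217 genes that fell in the HFSC lineage and rose in EpdSC and had a promoter window, 91 (41.9%) held a peak of wounded cells, 125 (57.6%) an HFSC peak and 55 (25.3%) an EpdSC peak. Of all 10971 genes, 77.1% held a peak of wounded cells, 80.2% an HFSC peak and 59.8% an EpdSC peak. A peak in HFSC and none in EpdSC was present at 72 of the 217 (33.2%) and at 21.2% of all genes. Among genes with a lower difference, that share was also 40.8% of 206 with a fall limited to the HFSC lineage, 28.6% of 294 with a rise limited to EpdSC and 30.6% of 206 that moved in 1 direction. Among genes with a higher difference, it was 10.8% of 37 that rose in the HFSC lineage and fell in EpdSC, 15.9% of 132 with a rise limited to the HFSC lineage, 12.1% of 224 with a fall limited to EpdSC and 14% of 178 that moved in 1 direction. The lists differ in length and come from other mice, and no test was made of these shares.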

How the data were processed

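RNA was measured by single-end sequencing, and open chromatin by ATAC-seq. The authors deposited raw counts per gene symbol for 21 RNA libraries, all matched to samples by title, with 0 columns left over. STAR, Bowtie, Picard, MACS2 2.1.1.20160309 and build mm10 are named per the submitters' processing notes; the gene counter and strand setting are not given in the sources used here, so reads of overlapping or antisense genes and near-identical copies may be split wrongly. The ATAC-seq peaks carry a fold enrichment ratio and a pileup signal, per the file headers, which state paired-end calling without a control; for these lists the position, the fold and the presence of a peak were used.

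Counts of the 8 CL libraries, without the total row, were fitted in edgeR 4.0.16 (R 4.3.3; filterByExpr, TMM scaling, quasi-likelihood F-test, Benjamini-Hochberg over all 14831 genes, threshold 0.05), with the interaction contrast. SE is the log2 value divided by the root of F. A response was limited to 1 lineage where the other was uncalled and under 1 (log2). BK libraries were fitted apart, and once with CL. Genes at 0 in a whole group are given as folds against a floor of 3 counts per library, covering counting error only. Alternatives were DESeq2 1.42.0, limma-voom 3.58.1, other scalings and filters, glmTreat, omission of each library, a replicate block and CL and BK in 1 fit. Added after seeing the data were removal of the gene span trend, omission of BK libraries and the contrast of the CL and BK responses of EpdSC. Tests were also run on simulated counts with 1 spread for every gene and equal group means outside the changed genes. That setting lacks the unequal spread between libraries found here, so it does not show how the tests behave under it. Promoter sequences are from RefSeq, GRCm38.p6, and a peak counted from 1 base of overlap.

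Named genes are the 4 markers, up to 6 per class and direction with the largest difference among those with a group mean of at least 10 CPM and non-overlapping responses, the called genes of fixed lists with up to 3 uncalled ones each, and the 10 most abundant called genes; a selection of these is described, some are not reported here, and Lhx2, Krt14, Ly6a and Xist also serve as checks. Members and lists were chosen with earlier results of these data known.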

Additional observations from a re-analysis of the deposited data

Results flagged for a closer look

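Results were listed here where the effects of 2 groups under 1 contrast differed by a test of the difference itself. The 2339 genes called in the difference of the wound responses meet this by construction, and so does every called gene described above. Among them, Sox6 differed by 5.25, Bmpr1b by 5.75, Dio2 by 5.71 and Crabp1 by -13.01 (log2, HFSC lineage response less EpdSC response). The size for Crabp1 rests on few counts in EpdSC and the wounded HFSC lineage.

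The EpdSC wound response also differed between the CL and BK sets, for 4975 genes. The CL response less the BK response was -3.11 for Sox6, -7.32 for Dio2 and 7.24 for Crabp1 (log2), the last with few counts in unwounded EpdSC. For Dio2 the signs were opposite, with a fall in CL and a rise in BK. The BK wounded group is 1 library, and the BK unwounded libraries go against their female label in Xist and Y-linked genes, so the parts of wound, sex and library in these differences cannot be told apart.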

How the results depend on the processing

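Of 132 called genes named, 78 kept their call and direction under each of 19 other settings, and no named call turned its direction; the uncalled difference of Fos did, ranging from -0.76 to 0.41 with 1 library left out and reaching 0.15 with the span trend removed. The difference gave 3909 calls by DESeq2 and 1060 when a log2 difference over 1 was required (glmTreat), which also gave 2891 calls in the HFSC lineage, 4584 in EpdSC, 712 between HFSC and EpdSC (1605 in the fit reported) and 718 between the wounded groups (2847). Between the wounded groups DESeq2 gave 5336 and no filter 4303. By glmTreat 100 genes were opposite, 140 limited to the HFSC lineage, 288 limited to EpdSC and 114 of 1 direction. By DESeq2 813 were limited to the HFSC lineage, 1359 to EpdSC and 817 of 1 direction. Genes limited to EpdSC numbered 464 with a limit of 0.5 and 1080 without a filter, and 342 were of 1 direction with CL and BK in 1 fit.

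With 1 library left out in turn, counts ranged between 789 and 6499 for the difference, 4064 and 7915 for the HFSC lineage response, 5735 and 9382 for the EpdSC response, 505 and 2198 between HFSC and EpdSC, 541 and 7460 between the wounded groups, 158 and 885 for opposite responses, 113 and 1094 for those limited to the HFSC lineage, 229 and 2480 for those limited to EpdSC and 149 and 1595 for 1 direction. The lone library left in a group is then assumed to vary like the others. In BK the ranges were 1260 to 6486 for HFSC against EpdSC and 398 to 6848 for the wound comparison. Deviations of A less B correlated by 0.614 between the wounded groups and by -0.293 to 0.0778 between the other pairs of groups. The labels tie no letter to an animal, so the letters were not taken to pair the libraries. Whether wounded libraries of 1 letter share a biopsy is not stated, and a pairing of the wounded groups alone was not modelled. A replicate block gave 1966 calls, 1866 of them shared, without Col4a5, Id1, Krt1, Ly6a, Ngfr, Pfkfb3, Wnt4 and Xist. Upper quartile scaling ended the calls of Col4a5, Col23a1, Ly6a, Ngfr and Wnt4. The Ensembl count tables gave 2118 calls, 1927 shared. The cause of these shifts was not tested. With 2 libraries a group, genes near 3 counts a library carry no usable fold.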

Other observations

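Binding proteins of insulin-like growth factors, which hold or release these growth factors outside cells, were called in 6 cases. Igfbp3 was higher in the difference, as given above, and Igfbp2, Igfbp4, Igfbp5, Igfbp6 and Igfbp7 were lower. Of all 11 genes of the insulin-like growth factor system tested, 2 were higher and 5 lower, against 5.31% and 10.5% of all genes. Igfbp2 stood at 125 and 174 CPM in the wounded HFSC lineage against 4.38 and 4.02 in HFSC, and 183 and 127 CPM in wounded EpdSC against 0.649 and 0.188 in EpdSC, a difference of -3.26 ± 0.57 (adjusted p = 0.00917 by edgeR's quasi-likelihood test). It rose in both lineages to levels that overlapped. Igfbp5 stood at 4.38 and 3.36 CPM in the wounded HFSC lineage against 64.8 and 61.3 in HFSC, and 4.11 and 1.23 CPM in wounded EpdSC against 0.69 and 0.5 in EpdSC (difference -6.14 ± 0.74, adjusted p = 0.00236). Igfbp7 stood at 69.7 and 98.2 CPM in the wounded HFSC lineage against 43.2 and 54.6 in HFSC, and 147 and 159 CPM in wounded EpdSC against 13 and 16.6 in EpdSC (difference -2.59 ± 0.35, adjusted p = 0.00356). Igfbp5 fell in the HFSC lineage and rose in EpdSC, and Igfbp7 rose in both, further in EpdSC. Omissions of 1 library that ended a call were found for Igfbp6 (1 of 8, up to adjusted p = 0.0615 without EpdSC A).

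Neural and axon guidance genes were counted against 10.5% of all genes lower and 5.31% higher. Of 17 neural genes known from the bulge, 6 were lower in the difference and 1, Ngfr, was higher. Kcnma1, a calcium-activated potassium channel, stood at 0 and 0.111 CPM in the wounded HFSC lineage against 13.1 and 7.93 in HFSC, and 0.0472 and 0.339 CPM in wounded EpdSC against 0.284 and 0.688 in EpdSC (difference -6.31 ± 1.51, adjusted p = 0.0309). HFSC were the group with the highest level. Ngfr, the low-affinity neurotrophin receptor, stood at 0.72 and 0.776 CPM in the wounded HFSC lineage against 7.37 and 13.2 in HFSC, and 1.98 and 1.57 CPM in wounded EpdSC against 88 and 79.2 in EpdSC (difference 1.79 ± 0.46, adjusted p = 0.0392). Of 28 axon guidance genes 7 were lower (11 under upper quartile scaling) and 3 higher. The secreted cue Sema3d stood at 3.4 and 10.5 CPM in the wounded HFSC lineage against 15.2 and 31.1 in HFSC, and 1.75 and 9.07 CPM in wounded EpdSC against 328 and 275 in EpdSC. The receptor Nrp2 stood at 12.8 and 15.7 CPM in the wounded HFSC lineage against 10.6 and 11.5 in HFSC, and 5.57 and 9.79 CPM in wounded EpdSC against 0.487 and 1.06 in EpdSC. Sema3d fell in EpdSC, where Nrp2 rose. With 1 library left out in turn, calls were lost for Ngfr (6 of 8, up to adjusted p = 0.134 without EpdSC A), Kcnma1 (6 of 8, up to adjusted p = 0.241 without wounded EpdSC B), Sema3d (5 of 8, up to adjusted p = 0.137 without EpdSC A) and Nrp2 (2 of 8, up to adjusted p = 0.0715 without EpdSC A).

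Xist, the RNA of the inactive X chromosome, stood at 224 and 641 CPM in the wounded HFSC lineage against 2668 and 1252 in HFSC, and 25.7 and 81.8 CPM in wounded EpdSC against 3161 and 2591 in EpdSC (difference 3.56 ± 0.94, adjusted p = 0.0413). It fell in both lineages, and wounded EpdSC held the lowest levels although all 8 libraries are labelled female. The threshold was missed under omissions of 1 library by Xist (6 of 8, up to adjusted p = 0.141 without HFSC B).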
